A study of Mus musculus with 9 samples.

Results

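Circadian clock genes were followed in the frontal cortex of Neat1-/- and wild-type (WT) mice. The 10 genes were chosen by name as core clock and clock output genes: Arntl, Clock, Npas2, Per1, Per2, Per3, Cry2, Nr1d1, Dbp and Ciart. All 10 were among the 43629 genes of the deposited count table and among the 19753 genes that had enough counts to be tested. None of them lies on chromosome 19, which carries Neat1. RNA was sequenced from 4 Neat1-/- mice (replicates 1, 3, 4 and 5, aged 3, 3, 4 and 2 months) and 5 WT mice (replicates 1 to 5, aged 2, 2, 3, 4 and 4 months), all of them C57BL/6 females. The Neat1-/- allele is present in every cell of the animal and carries lacZ and polyadenylation signals just after the Neat1 start site. The RNA was depleted of ribosomal RNA before the libraries were made. The time of day at which the brains were removed is not given in the sources used here.

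The mammalian clock is a feedback loop of transcription that runs in most cells of the body, cortical neurons and glia included. ARNTL (also called BMAL1) pairs with CLOCK or its relative NPAS2, and the pair binds E-box sequences and drives the Per and Cry genes, whose proteins then return to the nucleus and block the pair. The same pair drives Nr1d1, whose product represses Arntl, and output genes such as Dbp. The transcripts therefore swing over the day, Arntl in the opposite phase to Per, Nr1d1 and Dbp, so that 1 sample per mouse gives its level at 1 point of this cycle.

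The 9 libraries held between 51276067 and 64648856 counts, which gave each clock gene between 912 counts (Ciart) and 9742 counts (Clock) in a library. Levels are counts per 1000000 (CPM), scaled by TMM factors, and n is the number of mice. Neat1 itself averaged 8.14 ± 1.18 CPM in Neat1-/- mice and 81.5 ± 23.0 CPM in WT mice (SD, n = 4 and 5), which matched the labels. Markers of neurons summed to between 6450 and 6860 CPM in Neat1-/- mice and between 6310 and 6620 CPM in WT mice, and each of the 8 was counted. WT replicates 3 and 4 stood apart from the other 7 libraries along the first principal component, with scores of 47.7 and 42.1 against -17.8 to -4.80. Choroid plexus and ependymal markers were highest in WT replicate 3 (median log2 level 1.02 above the mean of the libraries), and meningeal markers lowest in WT replicate 4 (-1.27). Both libraries also had more counts in gene models typed as sense intronic or unconfirmed. Their shares were 0.234% in WT replicate 3 and 0.212% in WT replicate 4, against 0.113% to 0.136% in the other 7 libraries. The part of these traits in the clock gene values was not tested, and the main results were also taken without these 2 libraries. In cortex taken as a whole, fewer cells of a type and less RNA per cell cannot be told apart.

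Of the 10 clock genes, 0 differed between Neat1-/- and WT mice at an adjusted p of 0.05 in edgeR's quasi-likelihood test with age as a covariate, where 0.0709% of all tested genes passed. DESeq2 and limma also called 0 of 10, against 0.483% and 0.111% of all genes. At an unadjusted p under 0.05, edgeR gave 3 clock genes (Dbp, Cry2 and Ciart), against 8.3% of all tested genes. These 3 had higher values in Neat1-/- mice, where 4.27% of all genes were on that side of the threshold, and 0 had lower values, against 4.03%. At this unadjusted threshold DESeq2 gave 2 clock genes (7.8% of all genes) and limma 3 (9.9% of all genes). The median log2 fold change of the 10 was 0.0, as for all tested genes, with 5 positive and 5 negative values. In 0 of the 10 were the Neat1-/- and WT levels without overlap, against 2.67% of all tested genes.

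The count of 3 depended on which libraries were used. Without WT replicates 3 and 4, 0 of the 10 clock genes had an unadjusted p under 0.05 from edgeR, against 7.29% of the genes tested in those 7 libraries, and the median log2 fold change was 0.043. With single libraries left out, the count of 3 became 0 without Neat1-/- replicate 1, 1 without Neat1-/- replicate 3 or 4, 1 without WT replicate 1 or 4, and 5 without WT replicate 5. The share of all tested genes at that threshold was not taken with single libraries left out, so those counts lack a background. Genes called over the whole table also moved, from 14 to between 8 and 30 with 1 library left out. The number of clock genes called after adjustment was 0 in each of these fits.

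**Figure D1:**
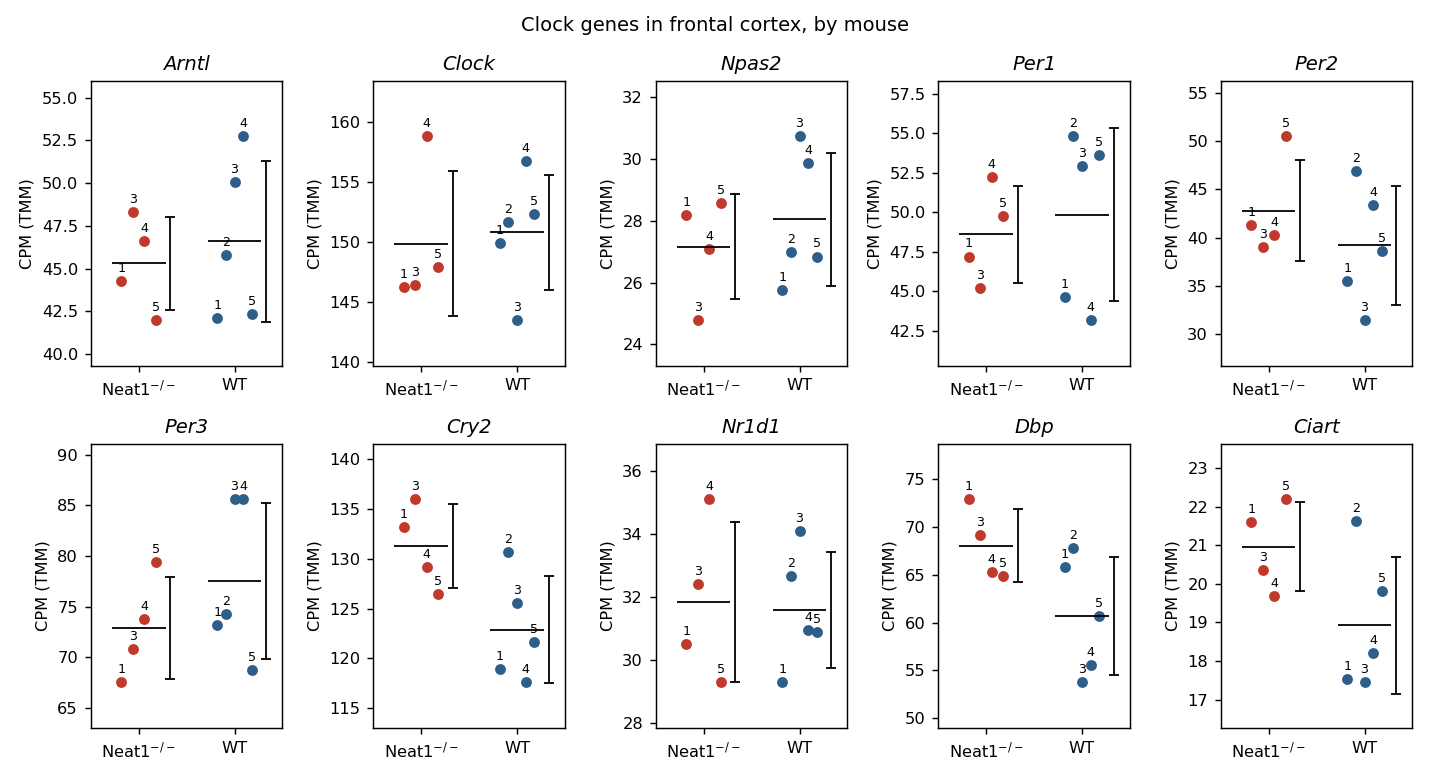
Level of each clock gene in TMM-normalized CPM (linear vertical axes that do not start at 0) in 4 Neat1-/- mice and 5 WT mice, with 1 point per mouse and the replicate number above it. Horizontal lines are means and bars 1 SD either side. The ranges of the genotypes overlap in all 10 panels, and WT replicates 3 and 4 have the lowest Dbp and the highest Per3 points.

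The activators of the loop had close levels in both genotypes. Arntl, the partner without which the activating pair cannot form, lies on chromosome 7 (113207465 to 113314126, plus strand). It had 44.3, 48.3, 46.6 and 42.0 CPM in Neat1-/- replicates 1, 3, 4 and 5, against 42.1, 45.8, 50.1, 52.8 and 42.3 CPM in WT replicates 1 to 5. The highest 2 levels were those of WT replicates 3 and 4, and all Neat1-/- mice but replicate 5 lay inside the WT range. Means were 45.3 ± 2.74 CPM in Neat1-/- mice and 46.6 ± 4.71 CPM in WT mice (SD), with a log2 fold change of -0.041 (95% interval -0.18 to 0.095, adjusted p = 0.873 from edgeR). Without WT replicates 3 and 4 the log2 fold change was 0.053.

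Clock (chromosome 5, 76209868 to 76304792, minus strand), which encodes the partner of ARNTL, was the steadiest of the 10. Its levels were 146, 146, 159 and 148 CPM in Neat1-/- mice, against 149.9, 152, 144, 157 and 152 CPM in WT mice. Neat1-/- replicate 4 was the highest of the 9, and the other 3 Neat1-/- mice lay within 2 CPM of each other. The log2 fold change was -0.010 (95% interval -0.085 to 0.065, adjusted p = 0.954 from edgeR). Npas2 (chromosome 1, 39193731 to 39363236, plus strand), which can stand in for CLOCK, had 28.2, 24.8, 27.1 and 28.6 CPM in Neat1-/- mice, against 25.8, 27.0, 30.7, 29.9 and 26.8 CPM in WT mice. Only WT replicates 3 and 4 were above all Neat1-/- mice. Its log2 fold change was -0.044 (95% interval -0.18 to 0.089, adjusted p = 0.852 from edgeR), and 0.034 without those 2 mice.

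The 3 Period genes encode the repressors that form complexes with the cryptochromes. Per1 (chromosome 11, 69095217 to 69109960, plus strand), which also responds quickly to neuronal activity and glucocorticoids, had 47.2, 45.2, 52.2 and 49.7 CPM in Neat1-/- mice. WT mice had 44.7, 54.8, 52.9, 43.2 and 53.6 CPM, a range that contains all 4 Neat1-/- levels. The log2 fold change was -0.037 (95% interval -0.20 to 0.12, adjusted p = 0.907 from edgeR). Per2 (chromosome 1, 91415982 to 91459324, minus strand) had 41.3, 39.0, 40.3 and 50.6 CPM in Neat1-/- mice, against 35.5, 46.9, 31.5, 43.4 and 38.6 CPM in WT mice. Neat1-/- replicate 5 was the highest and WT replicate 3 the lowest, 1.61-fold apart, which was the widest ratio among the 10 genes. Its log2 fold change of 0.12 had a 95% interval of -0.10 to 0.35 (adjusted p = 0.754 from edgeR), so that neither a small decrease nor a 1.27-fold increase lay outside it.

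Per3 (chromosome 4, 151003652 to 151044665, minus strand), whose loss alters the mouse clock least among the Period genes, had 67.5, 70.8, 73.8 and 79.4 CPM in Neat1-/- mice, against 73.2, 74.3, 85.7, 85.6 and 68.8 CPM in WT mice. WT replicates 3 and 4 were nearly equal and above all other mice. The log2 fold change was -0.088 (95% interval -0.24 to 0.060, adjusted p = 0.731 from edgeR), and 0.030 without these 2 mice. The whole span of Per3, introns included, lies inside the span of Camta1 (mean 217 CPM) on the same strand. Whether exons of both genes share bases was not measured, and reads in any such bases cannot be assigned by position alone. The part of such reads in the Per3 level was not tested.

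**Figure D2:**
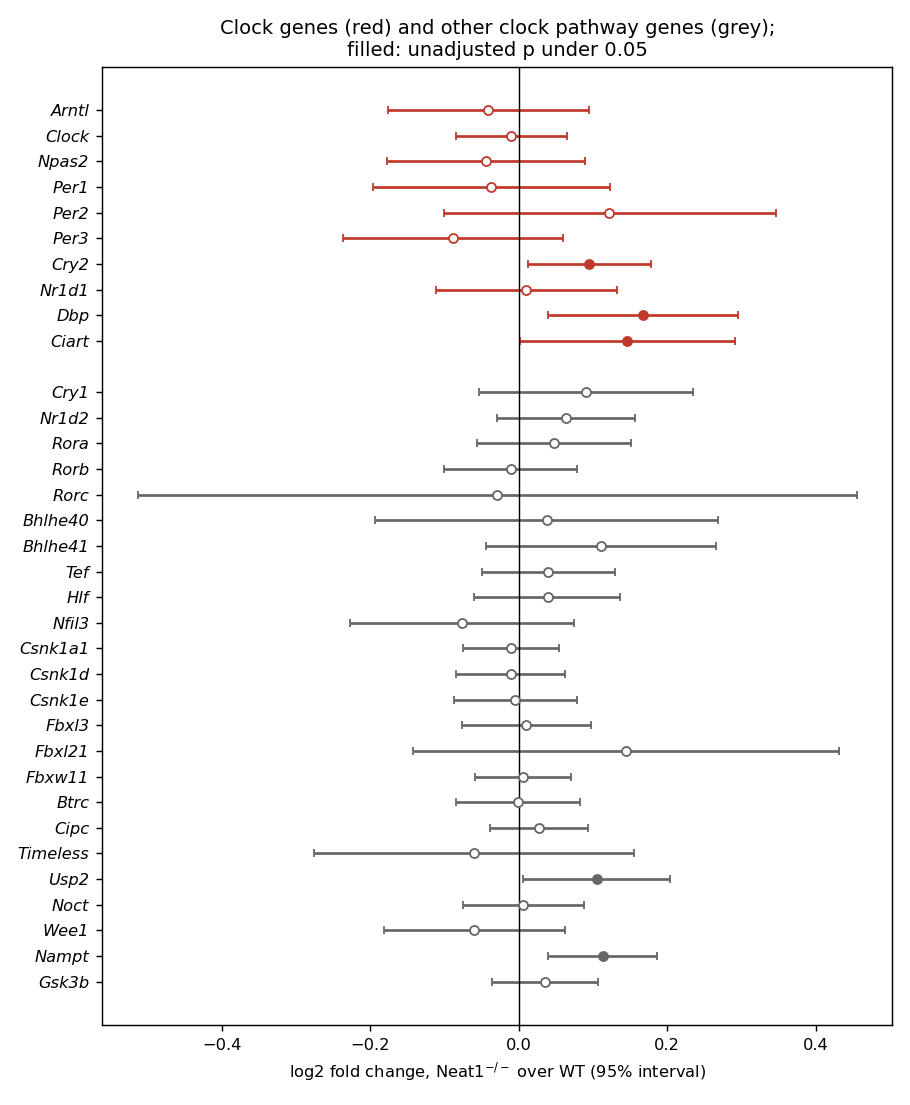
Log2 fold change, Neat1-/- over WT, from edgeR with age as a covariate (points) and its 95% interval (bars) for the 10 clock genes (upper rows) and 24 further clock pathway genes (lower rows), over 9 libraries. Filled points have an unadjusted p under 0.05: Dbp at 0.17, Ciart at 0.15 and Cry2 at 0.095 among the 10, and Nampt and Usp2 among the 24.

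Cry2 and Ciart, which encode other repressors of the activating pair, had slightly higher values in Neat1-/- mice. Cry2 (chromosome 2, 92403646 to 92434043, minus strand) is a cryptochrome that binds the pair directly. It had 133, 136, 129 and 127 CPM in Neat1-/- mice, against 119, 131, 126, 118 and 122 CPM in WT mice. Replicates 1 and 3 of the Neat1-/- mice were above all WT mice, while replicates 4 and 5 lay below WT replicate 2. Means were 131 ± 4.21 CPM in Neat1-/- mice and 123 ± 5.32 CPM in WT mice (SD), a fold of 1.07. The log2 fold change of 0.095 (SE 0.038) had p = 0.0267 and adjusted p = 0.58 from edgeR, and exact permutation of the mice over their CPM (two-sided) gave p = 0.0556, where the smallest possible is 0.00794. Without WT replicates 3 and 4 the change was 0.084 on the log2 scale (adjusted p = 0.711 from edgeR). The weakly counted D930015M05Rik (mean 1.57 CPM) overlaps Cry2 on the opposite strand.

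Ciart (chromosome 3, 95878503 to 95882251, minus strand) encodes CHRONO, a repressor of the activating pair whose transcript is strongly rhythmic. Its levels were 21.6, 20.4, 19.7 and 22.2 CPM in Neat1-/- mice, against 17.5, 21.6, 17.5, 18.2 and 19.8 CPM in WT mice. WT replicates 2 and 5 lay within the range of the Neat1-/- mice, and WT replicates 1, 3 and 4 below it. Means were 20.96 ± 1.14 CPM in Neat1-/- mice and 18.9 ± 1.78 CPM in WT mice (SD), a fold of 1.11. This log2 difference of 0.15 (SE 0.067) had p = 0.0488 and adjusted p = 0.6 from edgeR, with p = 0.0873 in the exact permutation test. It was 0.099 without WT replicates 3 and 4 and 0.093 without WT replicate 1. The antisense gene C920021L13Rik covers all of Ciart at a mean of 1.0 CPM, and whether the counting used strand is not given in the sources used here.

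Nr1d1 (chromosome 11, 98767932 to 98775333, minus strand) encodes REV-ERB alpha, the nuclear receptor that represses Arntl. It had 30.5, 32.4, 35.1 and 29.3 CPM in Neat1-/- mice, against 29.3, 32.7, 34.1, 31.0 and 30.9 CPM in WT mice. The genotypes covered nearly the same range. Its log2 fold change was 0.010 (95% interval -0.11 to 0.13, adjusted p = 0.972 from edgeR), and its sign turned in 7 of 20 alternatives, with values between -0.038 and 0.040. Nr1d1 shares 1075 bases with Thra on the opposite strand, and reads there cannot be assigned without strand.

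Dbp (chromosome 7, 45705088 to 45710203, plus strand) encodes a factor that binds D-box sequences and is the classical output of the loop. It had 73.0, 69.2, 65.3 and 64.9 CPM in Neat1-/- mice, against 65.9, 67.8, 53.8, 55.5 and 60.7 CPM in WT mice. Neat1-/- replicates 1 and 3 were above all WT mice, WT replicates 1 and 2 were among the Neat1-/- mice, and WT replicates 3 and 4 were the lowest. Means were 68.1 ± 3.81 CPM in Neat1-/- mice and 60.7 ± 6.17 CPM in WT mice (SD), a fold of 1.12. On the log2 scale the change of 0.17 (SE 0.059) had p = 0.0148 and adjusted p = 0.545 from edgeR, the smallest adjusted p of the 10, with p = 0.0952 in the exact permutation test. Without WT replicates 3 and 4 it was 0.083 (adjusted p = 0.76 from edgeR), and over the 20 alternatives its unadjusted p was under 0.05 in 18, of which leaving out those 2 libraries together was not one. Dbp shares 737 bases with Sphk2 on the opposite strand.

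Per length of transcript, Dbp and Cry2 were the most abundant of the 10, at 21.4 ± 2.1 RPKM and 20.0 ± 1.0 RPKM over the 9 mice (SD). Clock followed with 10.9 ± 0.369 RPKM and Nr1d1 with 10.3 ± 0.661 RPKM. Ciart (8.77 RPKM), Per1 (8.75 RPKM), Per3 (7.85 RPKM), Per2 (6.97 RPKM), Arntl (6.12 RPKM) and Npas2 (5.77 RPKM) came next. The ranges of neighbours in this order overlapped, except between Cry2 and Clock.

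Promoter sequences were examined for the motifs through which clock factors are known to bind. RefSeq promoter windows of 300 bases (250 before the start site and 50 after it, GRCm38.p6) were matched for 9 of the 10 genes, in 13 windows, with no window for Per2. They were searched on both strands for the E-box CACGTG and its variant CACGTT, the site AGGTCA read by ROR and REV-ERB receptors, the cyclic AMP response element TGACGTCA, and the D-box forms TTATGTAA and TTACGTAA. Of 32851 promoters, 7.15% held CACGTG, 4.68% CACGTT, 16.3% AGGTCA, 1.79% TGACGTCA, 0.938% TTATGTAA and 0.119% TTACGTAA. Letters of CACGTG were found in Ciart and Per1, CACGTT in Cry2 and Nr1d1, AGGTCA in Arntl, Clock and Per1, and TTATGTAA in Per3. These matches are letters in a window and not measured binding, and no match, as for Dbp and Npas2, concerns this window only. In the windows shown the motifs do not overlap each other. The Ciart window (chr3:95882179-95882478, minus strand) is shown for its 3 copies of CACGTG, the Per3 window (chr4:151044616-151044915, minus strand) for its 2 copies of TTATGTAA, and a Per1 window (chr11:69098699-69098998, plus strand) for CACGTG beside TGACCT, the other strand of AGGTCA. All are written 5′ to 3′ on the strand of the gene with the motifs in capitals.
Ciart: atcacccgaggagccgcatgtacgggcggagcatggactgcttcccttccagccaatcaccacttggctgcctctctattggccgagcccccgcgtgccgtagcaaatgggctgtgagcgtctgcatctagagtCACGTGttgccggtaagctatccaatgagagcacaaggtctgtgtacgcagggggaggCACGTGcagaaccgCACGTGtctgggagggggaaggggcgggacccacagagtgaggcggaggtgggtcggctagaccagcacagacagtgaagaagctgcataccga
Per3: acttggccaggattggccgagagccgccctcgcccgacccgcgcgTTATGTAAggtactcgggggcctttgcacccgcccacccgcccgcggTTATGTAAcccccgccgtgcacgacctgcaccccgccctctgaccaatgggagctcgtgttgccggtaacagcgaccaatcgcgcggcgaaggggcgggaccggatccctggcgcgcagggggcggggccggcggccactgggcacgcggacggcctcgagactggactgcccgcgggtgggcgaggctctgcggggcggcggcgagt
Per1: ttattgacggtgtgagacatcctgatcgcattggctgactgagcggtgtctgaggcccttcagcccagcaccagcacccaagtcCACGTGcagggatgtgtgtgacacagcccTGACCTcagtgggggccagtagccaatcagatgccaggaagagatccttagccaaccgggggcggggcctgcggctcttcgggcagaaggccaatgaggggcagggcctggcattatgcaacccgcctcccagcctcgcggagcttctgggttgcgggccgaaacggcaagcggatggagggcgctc

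The rest of the clock pathway was read from a list of 24 further genes, which holds the remaining cryptochrome, the second REV-ERB, the ROR receptors, the other D-box factors, kinases and F-box proteins that act on PER and CRY, and known output genes. All 24 were tested and 0 were called by edgeR, DESeq2 or limma. By edgeR, 2 had higher and 0 lower values in Neat1-/- mice at an unadjusted p under 0.05, and DESeq2 and limma gave 2 each, a share at the level of the 8.3%, 7.8% and 9.9% of all tested genes. The 2 became 4 without WT replicate 2, and 1 without WT replicate 1, 3 or 4 or without Neat1-/- replicate 1, 3 or 4. For these single libraries the share of all tested genes was not taken. Without both WT replicates 3 and 4 the count was 3, all higher (Rora, Bhlhe41 and Nampt), against 7.29% of the genes tested there. The median log2 fold change of the 24 was 0.018, with 15 positive and 9 negative values. Nampt, the enzyme of NAD+ salvage whose transcript is driven by the clock in liver, had 75.3, 78.6, 74.8 and 74.4 CPM in Neat1-/- mice, against 71.0, 72.1, 68.0, 67.5 and 71.7 CPM in WT mice. Every Neat1-/- mouse was above every WT mouse, as for 1.66% of all tested genes. For Nampt the log2 fold change was 0.11 (SE 0.034) with adjusted p = 0.474 from edgeR and p = 0.00794 in the exact permutation test, the smallest it can give, and 0.078 without WT replicates 3 and 4 (adjusted p = 0.671 from edgeR). Usp2, a clock-driven deubiquitinase, averaged 52.6 ± 1.498 CPM in Neat1-/- mice and 48.9 ± 3.03 CPM in WT mice (SD), with a log2 fold change of 0.10 (SE 0.046) and adjusted p = 0.594 from edgeR. It was 0.047 without WT replicates 3 and 4.

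The clock genes varied more between mice than most genes of like level. The SD of log2 CPM over the 9 libraries was 0.20 for Per2, 0.14 for Dbp, 0.13 for Ciart, 0.13 for Per1, 0.13 for Per3 and 0.12 for Arntl. For the tested genes nearest to each in mean level, the median SD was 0.070 for Per2, 0.065 for Dbp, 0.087 for Ciart, 0.065 for Per1, 0.062 for Per3 and 0.067 for Arntl. These 6 genes had a larger SD than at least 90% of those neighbours. Clock was the exception, with an SD of 0.048 against a neighbour median of 0.053. Per2 kept a large spread inside each genotype, with an SD of 0.17 in Neat1-/- mice and 0.23 in WT mice. Without WT replicates 3 and 4, 9 of the 10 genes still lay above the middle of their neighbours, and 2 (Per1 and Per2) above 90% of them. WT replicate 3 or 4 was the highest or the lowest library for 9 of the 10 clock genes, against 63.1% of all tested genes. The spread is a description of these libraries and was not tested.

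**Figure D3:**
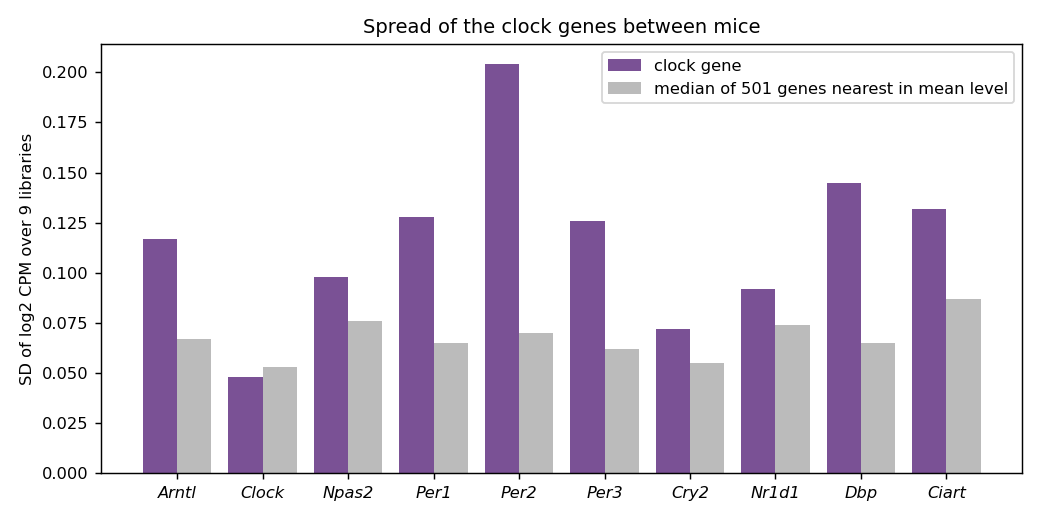
SD of log2 CPM over the 9 libraries for each clock gene (left bar of each pair) and the median SD of the tested genes nearest in mean level, as many as the legend gives (right bar). The SD of Per2 is 0.20 against a neighbour median of 0.070, and Clock is the gene whose bar is below that of its neighbours.

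To see whether clock genes varied together between mice, the 45 pairs were compared over the 9 libraries. After adjustment over the 45 pairs 0 passed 0.05 (smallest adjusted p = 0.275, two-sided exact permutation test of Pearson's r over 362880 orders), and 5 had an unadjusted p under 0.05 from r and 4 from Spearman's rho. The 5 became 2 without WT replicate 3 or 4 and 3 without WT replicate 2 or Neat1-/- replicate 4. Per2 and Ciart, both targets of the activating pair, varied together (r = 0.78, p = 0.0116, rho = 0.78, p = 0.0172, exact permutation, n = 9). Their r was 0.56 without the 2 libraries farthest from the median of Per2 (Neat1-/- replicate 5 and WT replicate 3), and 0.86 without WT replicates 3 and 4. Per3 and Dbp ran opposite to each other (r = -0.80, p = 0.0122, rho = -0.70, p = 0.0433, exact permutation). This relation rested on WT replicates 3 and 4, the 2 farthest from the median of Per3, without which r was -0.26. The same was so of Npas2 and Per3 (r = 0.74 with all libraries, 0.25 without), Dbp and Ciart (0.68 and 0.33) and Npas2 and Dbp (-0.68 and 0.005). Arntl and Dbp, which peak at opposite times of day, had r = -0.53 (p = 0.14, exact permutation), and 0.47 without WT replicates 3 and 4. Arntl and Nr1d1, also opposite in phase, had positive values (r = 0.55, p = 0.123, rho = 0.72, p = 0.0369, exact permutation). Their r was 0.81 without WT replicates 3 and 4. With Per1, Per2 and Per3 the r of Arntl was -0.23, -0.21 and 0.61. Cry2 and Dbp were under 0.05 by rho alone (rho = 0.75, p = 0.0255, r = 0.66, p = 0.0561, exact permutation). Genotype and age were left in all of these values. On residuals after both, r over the 9 libraries was 0.34 for Cry2 and Dbp and 0.41 for Dbp and Ciart. It was 0.75 for Per2 and Ciart, -0.90 for Per3 and Dbp, 0.73 for Npas2 and Per3 and -0.70 for Npas2 and Dbp. Of the residual pairs, 4 had an unadjusted p under 0.05 and 0 passed after adjustment (exact permutation). All pairs share the same libraries and scaling.

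**Figure D4:**
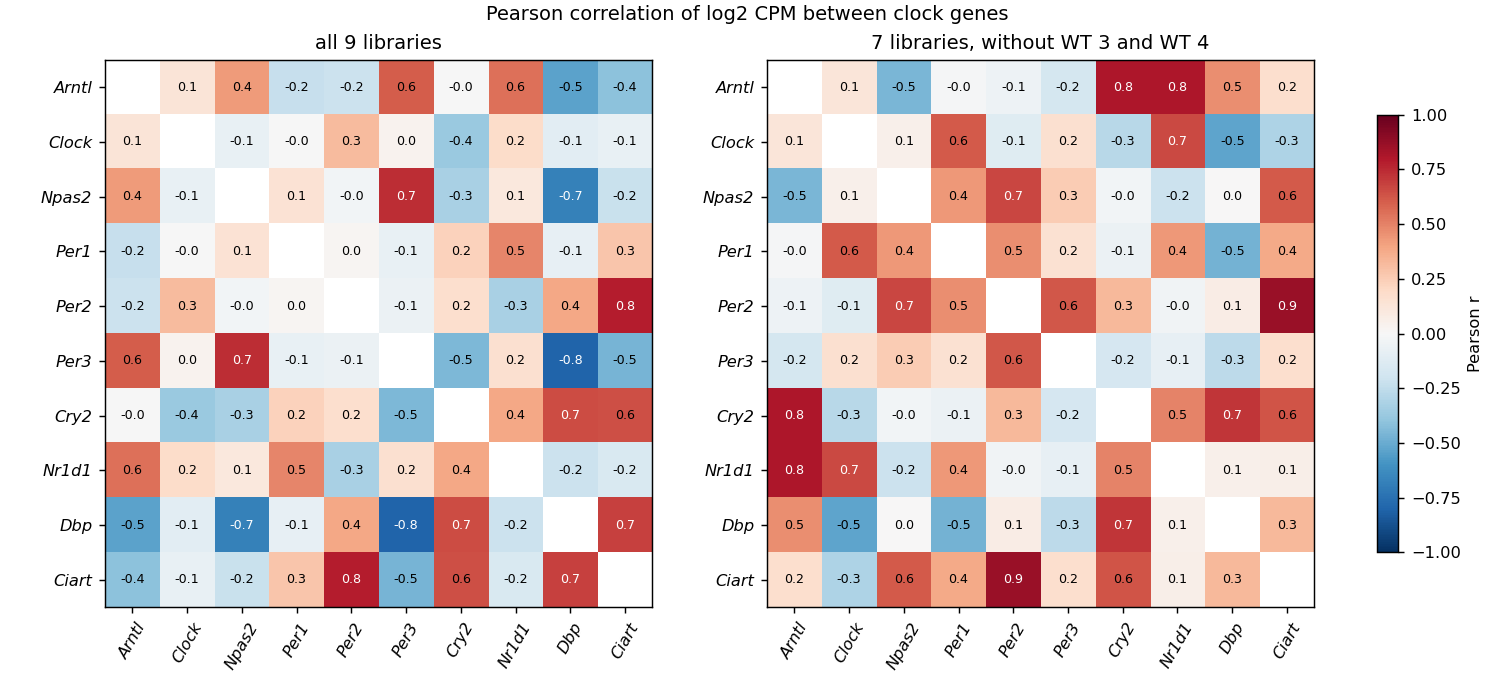
Pearson's r of log2 CPM between each pair of the 10 clock genes (colour scale from -1 to 1), with all 9 libraries in 1 panel and without WT replicates 3 and 4 in the other. Per2 and Ciart are at 0.78 and 0.86, and Arntl and Nr1d1 at 0.55 and 0.81, whereas Arntl and Dbp are at -0.53 and 0.47.

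**Figure D5:**
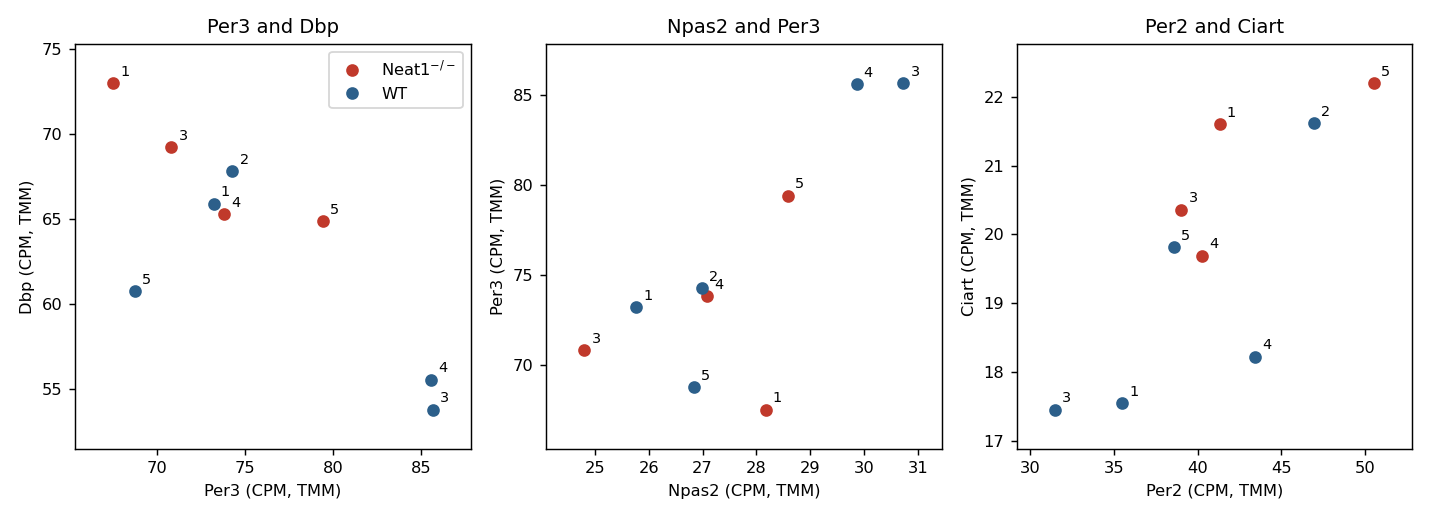
Level of 1 clock gene against another in TMM-normalized CPM (linear axes that do not start at 0) for 3 pairs, with 1 point per mouse, coloured by genotype and numbered by replicate. WT replicates 3 and 4 lie at the ends of the Per3 and Dbp relation (r = -0.80 with them, -0.26 without) and of the Npas2 and Per3 relation, while Per2 and Ciart are spread along the diagonal.

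Age, the other labelled difference between the mice, was not associated with the level of any clock gene at an adjusted p of 0.05 (edgeR, 0 of 10, and 0.0% of all tested genes), nor at an unadjusted p under 0.05 (0 of 10, against 5.98% of all genes). The steepest slopes were -0.068 (SE 0.036) per month on the log2 scale for Dbp and 0.062 (SE 0.038) for Arntl, with adjusted p = 0.828 and adjusted p = 0.83 from edgeR. Single libraries changed this: without WT replicate 5 both genes were under the unadjusted threshold, with slopes of 0.11 for Arntl and -0.087 for Dbp, and without Neat1-/- replicate 5 Dbp was, with a slope of -0.10. Without WT replicate 4 the slope of Arntl was 0.031, and without WT replicate 2 that of Dbp was -0.044. Of the 24 further genes, Nfil3, the repressor that competes with DBP at D-boxes, was under the unadjusted threshold for age, with a log2 slope of 0.11 per month (adjusted p = 0.82 from edgeR) and levels of 8.74 ± 0.858 CPM in Neat1-/- mice and 9.22 ± 0.664 CPM in WT mice (SD).

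Genes that share inputs with clock genes were read beside them. Of 13 immediate early genes, which neuronal activity induces as it does Per1, 0 were called by edgeR or limma and 1 by DESeq2, and 7 were lower and 0 higher in Neat1-/- mice at an unadjusted p under 0.05, against 4.03% and 4.27% of all tested genes in edgeR. All 13 log2 fold changes were negative, with a median of -0.34, and without WT replicates 3 and 4 there were 11 lower (7.29% of all genes in either direction). In 2 of the 13, Fosb and Btg2, the genotypes did not overlap, against 2.67% of all tested genes. Summed over the 13, the genotypes did overlap, with 348 to 457 CPM in Neat1-/- mice and 347 to 601 CPM in WT mice. Fosb was at 4.27, 4.81, 5.53 and 4.32 CPM in Neat1-/- mice, against 6.63, 7.25, 6.74, 6.20 and 7.97 CPM in WT mice, with no overlap. Its adjusted p was 0.0962 from edgeR with all libraries, 0.0198 without WT replicates 3 and 4, and 0.000632 from DESeq2. Btg2 averaged 19.4 ± 1.62 CPM in Neat1-/- mice and 28.4 ± 5.46 CPM in WT mice (SD). Of 15 glucocorticoid-responsive genes, 0 were called, and 0 were higher and 1 (Ddit4) lower at the unadjusted threshold in edgeR, a share near that of all genes. DESeq2 gave 1 and limma 2, and without WT replicates 3 and 4 edgeR gave 3, all lower. For age, 7 of the 15 had an unadjusted p under 0.05, Ddit4 and Sult1a1 among them, against the 5.98% of all genes given above. Ddit4 averaged 15.8 ± 3.22 CPM in Neat1-/- mice and 19.5 ± 2.32 CPM in WT mice, and Sult1a1, the gene of next smallest p, 8.86 ± 1.76 CPM in Neat1-/- mice and 7.44 ± 1.58 CPM in WT mice, with a log2 fold change of 0.25 (SE 0.13) that did not pass. Of 10 genes that respond to temperature, 0 were called, and 2 were higher and 1 lower at the unadjusted threshold by edgeR. DESeq2 gave 3, limma 5, and edgeR without WT replicates 3 and 4 gave 2 higher and 2 lower. Of all tested genes, 8.3% passed this threshold in edgeR, 7.8% in DESeq2, 9.9% in limma and 7.29% without WT replicates 3 and 4. The same shares apply to the marker counts below. Rbm3, a cold-inducible RNA-binding protein gene, averaged 47.0 ± 2.89 CPM in Neat1-/- mice and 37.1 ± 6.64 CPM in WT mice, with a log2 fold change of 0.34, or 0.17 without WT replicates 3 and 4. Cirbp, another such gene, averaged 51.6 ± 4.70 CPM in Neat1-/- mice and 44.1 ± 5.26 CPM in WT mice. Their part in the values of the clock genes was not tested. Markers of mature oligodendrocytes summed to between 1840 and 2820 CPM in Neat1-/- mice and between 2150 and 3360 CPM in WT mice. Of these 8 markers, 0 were called. At the unadjusted threshold edgeR gave 4, all lower, but 1 was given by DESeq2, 1 by limma and 2 without WT replicates 3 and 4. All 8 log2 fold changes were negative, with a median of -0.276, and -0.285 without those 2 libraries. The 4 progenitor markers also had negative log2 fold changes (median -0.117), and 0 were called. At the unadjusted threshold 1 of the 4 was lower by edgeR, and 2 without WT replicates 3 and 4, with 1 by DESeq2 and 1 by limma. Higher at this threshold by edgeR were 2 of 7 microglial markers, which summed to between 248 and 265 CPM in Neat1-/- mice and between 229 and 268 CPM in WT mice, and 2 of 8 striatal markers, which summed to at most 175 CPM in Neat1-/- mice and 193 CPM in WT mice. Both counts were 0 without WT replicates 3 and 4. Each of these markers was counted in at least 1 library, and their part in the clock gene values was not tested either.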

How the data were processed

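Raw gene counts were deposited, along with the authors' normalized log2 values for 13456 genes. The alignment (mm10) was by STAR 2.5.0 with HTSeq 0.8.0 in the submitters' processing notes. The supplementary methods instead give TopHat 2.0.9 and Bowtie 2.1.0, with counting by HTSeq 0.6.0. The counts were used as deposited. Gene names and GRCm38 positions came from GENCODE M21 (42548 IDs named, 99.9% of the counts).

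Genes were kept by filterByExpr by genotype and tested with edgeR 4.0.16 in R 4.3.3 (glmQLFit and glmQLFTest, TMM, age in months and genotype) with Benjamini-Hochberg adjustment over 19753 genes at 0.05. Biological variation (common BCV) was 0.0922. For single genes, all 126 splits of the mice were also enumerated on CPM (exact permutation, two-sided). RPKM is CPM per kilobase of exons. Log2 CPM used a prior count of 2, on which spread and correlations were computed. Alternatives were DESeq2 1.42.0, limma 3.58.1 (voomWithQualityWeights), other size factors, filters and age terms, the deposited log2 values, a replicate block and libraries left out. Python 3.11.15 was used outside R.

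Named were Neat1, the 10 clock genes, further clock genes at an unadjusted p under 0.05, the 2 genes of smallest p in each list beside them, and, for Arntl and Dbp, the 3 genes with the highest and lowest correlation among those of at least 5 CPM. The clock genes, lists and left-out libraries were chosen with earlier results of these data known.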

Additional observations from a re-analysis of the deposited data

Results flagged for a closer look

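The level of Clock in Neat1-/- replicate 4, 158.8 CPM, was far from those of the other 3 Neat1-/- mice. Its gap to the nearest of them was 0.872 of the whole range of the 4 mice, above Dixon's critical value for 4 samples. In 20 such groups tested (10 genes in each genotype), 1 such value was found, and chance gives about 1 in 20.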

How the results depend on the processing

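No clock gene was called under any of 19 alternatives. The number of genes called over the whole table moved from 14 to 75 with DESeq2, 22 with limma, 76 without a filter and between 8 and 30 with 1 library left out. Clock genes at an unadjusted p under 0.05 numbered 3, 0 without both WT replicates 3 and 4, and 0 to 5 with 1 library left out. Further clock genes at that threshold numbered 2, 1 with library size alone, and 1 with at least 10 counts in every library. They numbered 3 without both WT replicates 3 and 4, and 1 to 4 with 1 library left out. With 1 library left out, or with other filters or size factors, the share of all tested genes at that threshold was not taken. Correlated pairs numbered 0 after adjustment, with 0 to 1 over the left-out libraries (1 without WT replicate 5), and 5 unadjusted, 3 without both WT replicates 3 and 4, and 2 to 6 with 1 library left out.

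Of the 10 fold changes, those of Arntl, Clock, Npas2, Per1, Per3 and Nr1d1 changed sign under at least 1 alternative, Per3 from a value of -0.088. Without both WT replicates 3 and 4 the log2 fold changes were 0.053 for Arntl, 0.034 for Npas2 and 0.030 for Per3, and in the deposited normalized values 0.043, 0.022 and 0.023. The deposited values are not a like setting, since they were fitted with genotype alone. Of their difference from TMM log2 CPM, 99.92% lay in 2 components. With age as a factor Clock was at 0.013 and Nr1d1 at -0.002, and with library size alone Nr1d1 was at -0.001. With 1 library left out, Per1 ranged from -0.10 to 0.006 and Nr1d1 from -0.038 to 0.040. The slopes per month then ranged from -0.004 to 0.049 for Npas2, -0.034 to 0.045 for Per3 and -0.035 to 0.003 for Cry2. That of Per1, near 0 with all libraries, ranged from -0.037 to 0.051. Those of Arntl (0.031 to 0.11) and Dbp (-0.10 to -0.044) kept their sign. The cause was not tested.

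With a replicate block, 5 clock genes had an unadjusted p under 0.05, 12 genes were called over the whole table, and Per1 was at 0.021. The share of all tested genes at the unadjusted threshold was not taken for this fit, so the 5 lack a background. With a term for each replicate number besides age and genotype, it also left few residual degrees of freedom. Same-numbered libraries had an r of deviations of 0.044, -0.045, 0.137 and -0.077 (replicates 1, 3, 4 and 5). Only for replicate 4 was the library of its own number the best match. These values cannot show whether the numbers pair the mice, since the labels do not say what the numbers stand for. The number of mice, 1 time point per mouse and the unknown time of day limit what these values show.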

Other observations

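Among 11616 tested genes of at least 5 CPM, those with the log2 CPM pattern most like Arntl over the 9 libraries were Arid3b (r = 0.99), Fbxl20 (r = 0.96) and Pcsk2os1 (r = 0.95), and those least like it Ly6a (r = -0.96), Adra2a (r = -0.95) and Slc25a11 (r = -0.95). For Dbp they were Fgf12 (r = 0.98), Rapgefl1 (r = 0.97) and Zfp39 (r = 0.97), and Srgap2 (r = -0.96), Kcnt2 (r = -0.94) and Taf1a (r = -0.93). Without WT replicates 3 and 4 the r with Arntl was 0.87 to 0.98 for the 3 most like it and -0.94 to -0.87 for the 3 least like it. With Dbp it was 0.88 to 0.92 for the 3 most like it. For Srgap2, Kcnt2 and Taf1a it was then -0.86, -0.82 and -0.69. These are the extremes of a search over all those genes and are given with no test.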
